A study of Mus musculus with 4 samples.

Results

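The photoreceptor precursor genes Otx2, Crx, Prdm1, Thrb, Rxrg, Nrl and Rbp3 were examined in RNA-seq counts of the embryonic mouse retina (E13.5). These 7 genes, of 24062 in the deposited count table, were taken by name as genes of early cone and rod precursors. The libraries compared wildtype retinas with Nrf1 f/f;Six3-Cre retinas, named Nrf1-CKO in the labels, in which both alleles of the transcription factor gene Nrf1 are floxed and Cre removes exon 4 in retinal progenitor cells. There were 2 libraries of each genotype (WT and Nrf1-CKO), all on a mixed C57BL/6 and 129 background, and retinas of several embryos were pooled for each library. The Six3-Cre transgene starts in the central retina, so cells at the retinal margin and cells that are not of retinal origin can keep an intact Nrf1 gene. A library is a pool of whole retinas, and fewer precursor cells cannot be told apart from less RNA of these genes per cell.

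Cones are among the first neurons born in the retina and rods begin to be made somewhat later, both from precursor cells that switch on the homeobox gene Otx2 as they leave the cell cycle. OTX2 protein turns on Crx, a related homeobox gene that drives most photoreceptor genes, and Prdm1 (Blimp1), a repressor that keeps these cells from becoming bipolar cells. The cone branch is marked by Thrb, the gene of thyroid hormone receptor beta, and by Rxrg, the gene of its partner retinoid X receptor gamma. The rod branch depends on the leucine zipper gene Nrl. Rbp3 encodes the retinoid-binding protein of the space between photoreceptors and pigment epithelium, and is switched on early in both.

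The precursor genes covered a wide range of levels. Per kilobase of merged exons, wildtype levels in RPKM (reads scaled for library depth with TMM factors and for gene length) were 22.3 ± 0.557 for Otx2, 18.7 ± 0.503 for Crx, 8.78 ± 0.368 for Prdm1, 8.39 ± 0.293 for Thrb, 4.09 ± 0.734 for Rxrg, 1.55 ± 0.0814 for Rbp3 and 0.0869 ± 0.0179 for Nrl (SD, n = 2). The neighbours Prdm1 and Thrb did not differ beyond their spread, and they change places when the longest transcript is used as the length. In Nrf1-CKO retinas the means were 21.8 for Otx2, 13.2 for Crx, 7.74 for Prdm1, 6.74 for Thrb, 1.79 for Rxrg, 1.22 for Rbp3 and 0.0615 for Nrl RPKM, in the same order. Nrl, the rod gene, was close to the detection limit of these libraries, with 37 and 42 reads in wildtype, 23 and 35 in mutant retinas.

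In GRCm38, 4 of the 7 genes lie on chromosome 14. Thrb spans chr14:17660261-18038090 on the plus strand, Rbp3 chr14:33954003-33964216 on the plus strand, Otx2 chr14:48657677-48673819 on the minus strand and Nrl chr14:55518978-55524981 on the minus strand. Rxrg lies at chr1:167598384-167639623 (plus strand), Crx at chr7:15865947-15879968 (minus strand) and Prdm1 at chr10:44437177-44528501 (minus strand). Of the merged exons of Otx2, 168 bp (3.98%) are shared with other annotated genes, among them its antisense RNA. The counts were made per gene, so the cone isoform of Thrb was not separated from its other transcripts.

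The start of Crx and Rbp3 is shown because both hold the letters GGATTA on the strand of the gene, the core that OTX2 and CRX bind. The RefSeq promoter table of GRCm38.p6 was searched on both strands, in windows from 250 bases before to 50 bases after each start. The bases before the start follow, 5′ to 3′ on the strand of the gene, with the core in capitals.
Crx, chr7:15879956-15880205, minus strand: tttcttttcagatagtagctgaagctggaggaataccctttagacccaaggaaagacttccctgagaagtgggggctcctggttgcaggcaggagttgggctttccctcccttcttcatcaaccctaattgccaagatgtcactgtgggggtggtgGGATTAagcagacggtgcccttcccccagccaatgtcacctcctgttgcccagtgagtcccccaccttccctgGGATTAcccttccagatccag
Rbp3, chr14:33953753-33954002, plus strand: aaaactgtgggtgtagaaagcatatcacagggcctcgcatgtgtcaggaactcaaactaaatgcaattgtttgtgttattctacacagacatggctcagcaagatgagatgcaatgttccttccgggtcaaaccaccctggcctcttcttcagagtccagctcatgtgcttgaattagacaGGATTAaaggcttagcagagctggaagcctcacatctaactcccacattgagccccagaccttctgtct
Thrb, around its match, chr14:17660902-17660931, plus strand: cgtgacgcggcgGGATTAactttgcatggc
Otx2, around its match, chr14:48665303-48665332, minus strand: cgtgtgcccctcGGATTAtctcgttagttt
The first base of the core lay 94 and 21 bases before the start in Crx, 69 before it in Rbp3, 46 before it in Thrb and 211 before it at the third of the 4 Otx2 starts. The stretches shown for Thrb and Otx2 lie within annotated exons of other transcripts. The core was present in 4 of the 7 members, in 10 of 25 later photoreceptor genes with a window (40%), and in 8.137% of all 27025 genes of the table. A gene counted with a match in any of its windows. The 7 members had 12 windows and the 27025 genes 32851, so members had more windows per gene. Prdm1, Rxrg and Nrl had no match in their windows. The longer form GGGATTA, which contains the core, was found in Crx and Thrb and in 2.583% of all genes. The nuclear receptor element AGGTCA was found in the windows of Thrb and Rxrg, against 18.13% of all genes. None of the 7 members (0 of 7) held the NRF1 motif GCATGCGC, which was found in 3.049% of all genes, or its longer palindromic form, found in 1.073%. These matches describe letters only, and binding was not measured.

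The comparison of the genotypes asked how the precursor genes respond when Nrf1 is deleted in progenitors. Crx and Rxrg fell in Nrf1 f/f;Six3-Cre retinas, Otx2 was measured at nearly the same level in both genotypes, and Prdm1, Thrb, Nrl and Rbp3 had values below wildtype that did not pass the call. The call required a fold of 1.4 or more (0.485 on the log2 scale) with an adjusted p no higher than 0.2, from edgeR's quasi-likelihood test with Benjamini-Hochberg adjustment over all 15762 tested genes. All 7 members passed the filter on low counts, 2 were called lower and 0 higher, against 8.04% and 12.8% of all tested genes. Without a minimum fold, 4 members (Crx, Prdm1, Thrb and Rxrg) had an adjusted p of at most 0.2 and a lower level, against 19.5% of tested genes. For 5 members both mutant libraries lay below both wildtype libraries, against 31.6% of tested genes. The log2 fold change was below 0 for all 7, with Otx2 close to 0, against 49.9% of tested genes, and the median of the 7 was -0.35, beside 0.0007 over all tested genes.

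**Figure D1:**
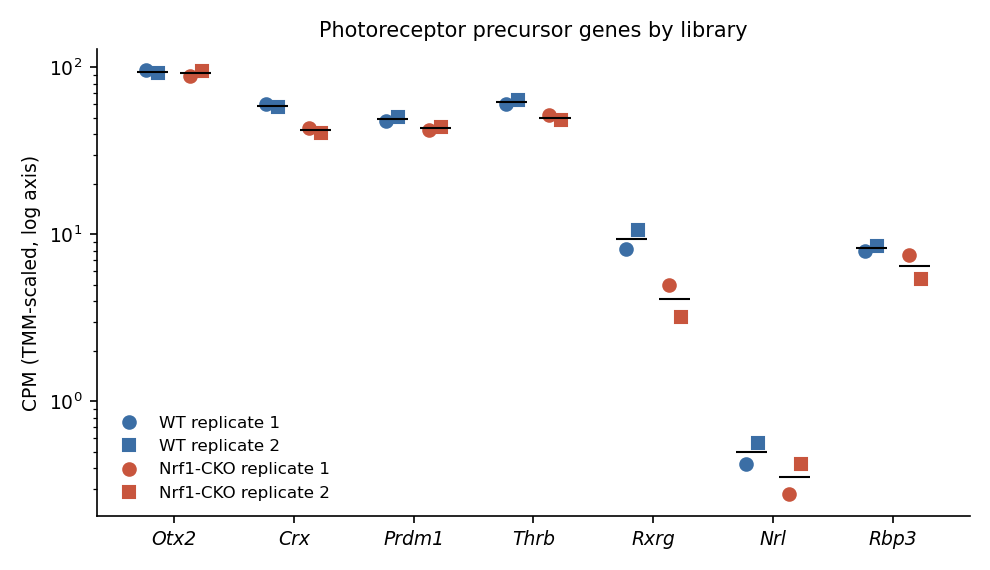
Depth-scaled read counts (CPM with TMM factors, log axis) of the 7 precursor genes in each library. Blue marks WT and red Nrf1-CKO, circles replicate 1, squares replicate 2 and black lines the mean of the 2 libraries. The genotypes lie apart for Crx, Prdm1, Thrb, Rxrg and Rbp3 and overlap for Otx2 and Nrl.

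Otx2, which starts the programme, was counted with 8392 and 6861 reads in wildtype, and with 7368 and 7888 reads in Nrf1-CKO retinas. Scaled for depth these were 95.8 and 92.5 CPM against 88.7 and 95.3 CPM, and the genotypes overlapped. The log2 fold change of -0.03 (SE 0.08, adjusted p = 0.807 from edgeR) had a 95% interval from -0.21 to 0.14, which does not reach a 1.4-fold change in either direction. Its sign depended on the scaling, at 0.0062 with upper quartile factors.

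Crx, the direct successor of Otx2 in the programme, had 5274 and 4300 reads in wildtype and 3619 and 3324 in Nrf1-CKO retinas. In scaled units wildtype retinas had 59.1 ± 1.59 CPM and Nrf1-CKO retinas 41.9 ± 2.39 CPM (SD, n = 2), and both mutant libraries lay well below both wildtype libraries. Crx fell by 0.50 on the log2 scale, to 70.8% of wildtype (SE, standard error, of 0.08, 95% interval from -0.68 to -0.32, adjusted p = 0.00244 from edgeR). The decrease lies just past the 1.4-fold threshold, and the call was lost at -0.47 without WT replicate 1, at -0.44 without Nrf1-CKO replicate 2, at -0.46 with upper quartile factors and at -0.44 on the deposited log2 values.

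Prdm1, the repressor that holds precursors to the photoreceptor fate, had 4164 and 3742 reads in wildtype, and 3523 and 3640 reads in mutant retinas. Its levels of 47.5 and 50.5 CPM against 42.4 and 44.0 CPM did not overlap. The log2 fold change of -0.18 (SE 0.08, 95% interval from -0.36 to -0.0011, adjusted p = 0.142 from edgeR) was smaller than 1.4-fold.

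The cone genes Thrb and Rxrg differed in how far they lay below wildtype. Thrb had 5302 and 4718 reads in wildtype and 4298 and 3978 in Nrf1-CKO retinas, that is 62.1 ± 2.17 and 49.9 ± 2.58 CPM (SD, n = 2). The mutant libraries lay below the wildtype libraries, with a log2 fold change of -0.31 (SE 0.08, 95% interval from -0.50 to -0.13, adjusted p = 0.0211 from edgeR), a size below the 1.4-fold threshold. Rxrg had 718 and 785 reads in wildtype and 416 and 265 in Nrf1-CKO retinas. The lower wildtype library, at 8.20 CPM, was above the higher mutant library, at 5.01 CPM, and the other mutant library was at 3.20 CPM. Rxrg fell by 1.19 on the log2 scale, to 43.7% of wildtype (SE 0.23, 95% interval from -1.72 to -0.66, adjusted p = 0.00653 from edgeR). Leaving out any single library kept the call, with values between -1.55 and -0.91, and was not called on the deposited log2 values at -0.67 (adjusted p = 0.205 from limma).

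Rbp3, which is made by both photoreceptor types, had 694 and 633 reads in wildtype and 625 and 446 in Nrf1-CKO retinas. The levels were 7.92 and 8.53 CPM against 7.52 and 5.39 CPM, and Nrf1-CKO replicate 1 lay close to the wildtype libraries. The log2 fold change of -0.35 (SE 0.19, 95% interval from -0.77 to 0.07, adjusted p = 0.222 from edgeR) was not called, and it became -0.61 and was called when Nrf1-CKO replicate 1 was left out. For Nrl the genotypes overlapped, at 0.423 and 0.566 CPM against 0.277 and 0.423 CPM. Its log2 fold change of -0.49 (SE 0.59, adjusted p = 0.613 from edgeR) had a 95% interval from -1.84 to 0.85, so neither a decrease nor an increase of 1.4-fold could be detected or set aside at this depth.

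**Figure D2:**
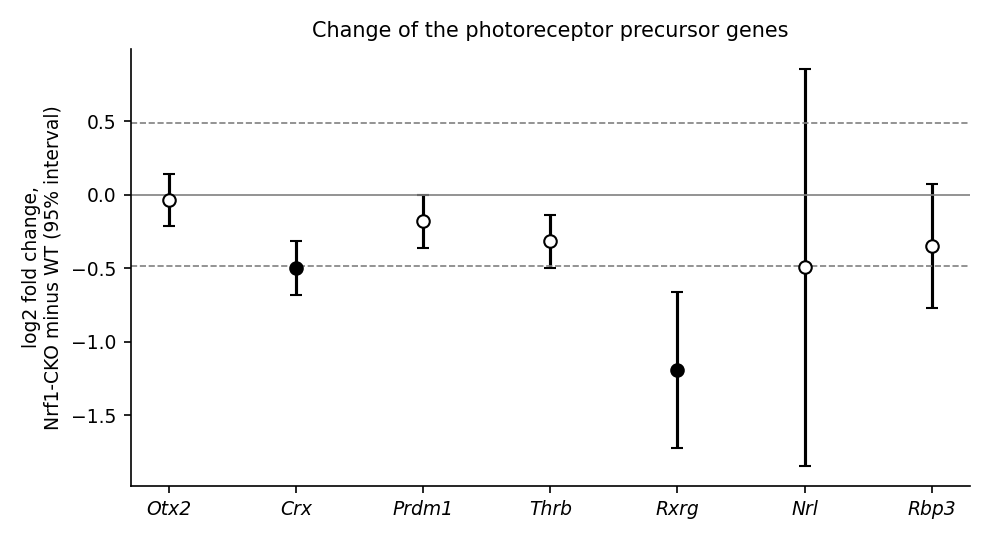
Log2 fold change of each precursor gene, Nrf1-CKO minus WT, with its 95% interval from edgeR. Filled points passed the call, open points did not, and dashed lines mark 1.4-fold. Crx (-0.50) and Rxrg (-1.19) were called, and the interval of Nrl is the widest, from -1.84 to 0.85.

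The levels relative to Otx2 within each library do not depend on the scaling between libraries. Crx reads were 62.8% and 62.7% of Otx2 reads in wildtype retinas but 49.1% and 42.1% in Nrf1-CKO retinas. Thrb reads were 63.2% and 68.8% of Otx2 reads in wildtype and 58.3% and 50.4% in Nrf1-CKO retinas, and Rxrg reads 8.56% and 11.4% against 5.65% and 3.36%. All 3 of these ratios were lower in both mutant libraries than in both wildtype libraries. The same held for Prdm1, at 49.6% and 54.5% against 47.8% and 46.1% of Otx2 reads, with a small gap. Rbp3, at 8.27% and 9.23% against 8.48% and 5.65%, overlapped between the genotypes, as did Nrl. With 2 libraries against 2, an exact permutation test of a ratio cannot reach 0.05, so the ratios carry no test. Otx2 itself was nearly equal in both genotypes, so these ratios largely restate the fold changes above. The share of all genes with a separate ratio to Otx2 was not computed. In CPM, 31.6% of tested genes had both mutant libraries below both wildtype libraries.

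**Figure D3:**
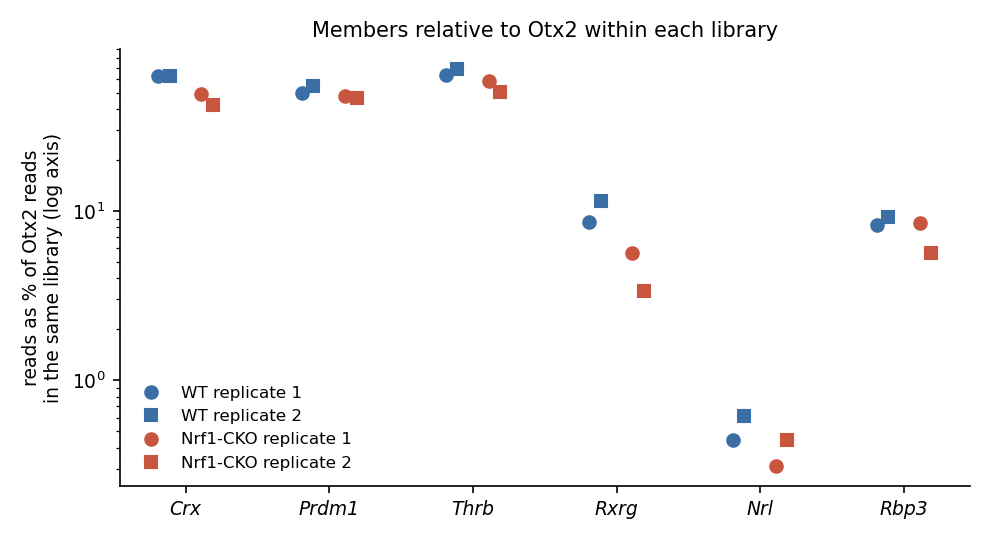
Reads of each precursor gene as a percentage of Otx2 reads in the same library (log axis), with WT in blue, Nrf1-CKO in red, circles for replicate 1 and squares for replicate 2. Both mutant libraries lie below both WT libraries for Crx, Prdm1, Thrb and Rxrg, and the genotypes overlap for Nrl and Rbp3.

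Ratios among the later genes, also without a test, were as follows. Rxrg reads were 13.54% and 16.6% of Thrb reads in wildtype and 9.68% and 6.66% in Nrf1-CKO retinas. Relative to Crx, Prdm1 was higher in the mutant libraries, at 97.3% and 110% against 79.0% and 87.0% in wildtype, and so was Thrb, at 119% and 120% against 101% and 110%. Rxrg relative to Crx was lower in the mutant libraries, at 11.5% and 7.97% against 13.6% and 18.3% in wildtype, and Rbp3 relative to Crx overlapped between the genotypes.

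Against all 15762 tested genes, 3.07% had a lower log2 fold change than Rxrg, 10.3% a lower one than Crx, 16.4% than Thrb, 25.8% than Prdm1 and 45.1% than Otx2. The genes whose profile over the 4 libraries was most like the mean profile of the members were Gcnt4, Camkmt, Polr2f, Mthfsd and Agap1, at Euclidean distances of 0.0247, 0.0299, 0.0358, 0.0375 and 0.0441 in centred log2 CPM, out of 11320 candidates with at least 5 CPM. Their log2 fold changes were -0.45, -0.44, -0.44, -0.43 and -0.43, and 0 of the 5 passed the call with all 4 libraries. Over 4 libraries this likeness is a description only.

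Among 14 other factors that promote or refine photoreceptor fate, 12 were tested, 5 were called lower and 0 higher, and their median change was -0.27 on the log2 scale. The count of 5 was 3 without WT replicate 2, 2 without Nrf1-CKO replicate 2, and 1 with glmTreat or limma. Neurod4, a proneural factor of early photoreceptor and amacrine precursors, had 5133 and 4191 reads in wildtype and 3776 and 2997 in Nrf1-CKO retinas and fell by 0.50 on the log2 scale (adjusted p = 0.0112 from edgeR). Its call was lost without WT replicate 1 (-0.47), without Nrf1-CKO replicate 2 (-0.34) and with upper quartile factors (-0.46). Samd11, a partner of CRX in rods, fell by 0.58, and its call was lost without WT replicate 2 (-0.43) and without Nrf1-CKO replicate 2 (-0.41). The Onecut genes, which act in the choice between cone and horizontal cell fate and are also active in ganglion cells, fell by 0.65 (Onecut1) and 0.84 (Onecut2). In contrast, Neurod1, which photoreceptors need for survival, had 7382 and 6564 reads in wildtype and 6722 and 7015 in mutant retinas and overlapped, with a log2 fold change of -0.06. Olig2 (-0.07), active in progenitors that make cones and horizontal cells, and Rax (0.06), a homeobox gene of progenitors and photoreceptors, also overlapped, and both changed sign when single libraries were left out. Rorb, a nuclear receptor upstream of Nrl, had a log2 fold change of -0.41 with separate genotypes, smaller than 1.4-fold, and was called without Nrf1-CKO replicate 1 (-0.54).

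Of 9 factors that hold back photoreceptor fate, all tested, 1 was called lower and 1 higher, and the median was -0.12. Hes5, an effector of Notch signalling, had 16627 and 19456 reads in wildtype and 11716 and 10982 in Nrf1-CKO retinas and fell by 0.72 on the log2 scale (adjusted p = 0.00527 from edgeR). Without WT replicate 2 the change of Hes5 was -0.47 and was not called. Notch3 rose by 0.65. Notch1, the receptor whose loss releases cone production, had a log2 fold change of -0.21 (adjusted p = 0.106 from edgeR). Hes1, a further Notch effector, had one of -0.29 (adjusted p = 0.0525 from edgeR). For both genes the mutant libraries lay below the wildtype libraries, and the call was missed only by size. Notch3 is also a gene of the cells that coat vessels.

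Of 38 later genes of photoreceptors, such as opsins and the proteins of phototransduction, 22 passed the filter on low counts. Among these, 7 were called lower and 2 higher, with a median of -0.33, and 7 of the 38 had no more than 3 reads in every library. The 7 lower calls became 3 without WT replicate 2, 3 without Nrf1-CKO replicate 2 and 1 with limma on the deposited log2 values. Pdc, the gene of phosducin, had 282 and 278 reads in wildtype and 114 and 75 in Nrf1-CKO retinas and fell by 1.61 on the log2 scale (adjusted p = 0.00546 from edgeR). The cone genes Pde6c (phosphodiesterase), Gngt2 (transducin gamma) and Cngb3 (channel subunit) fell by 1.28, 0.98 and 0.56. The calls of Pde6c and Cngb3 were lost without WT replicate 2, at -0.68 and -0.41, and without Nrf1-CKO replicate 2, at -1.13 and -0.45. Impg2, a proteoglycan gene of the matrix around photoreceptors, fell by 1.17 (-1.85 without Nrf1-CKO replicate 1 and -0.71 without Nrf1-CKO replicate 2), and Sag and Pde6g were the other genes called lower, neither of which kept its call when any 1 library was left out. Cone transducin alpha, Gnat2, had 140 and 115 reads against 82 and 84 and was not called (log2 fold change -0.65, adjusted p = 0.214 from edgeR), but passed with edgeR's exact test. In the opposite direction, Abca4, a retinoid transporter gene of photoreceptors, had 611 and 528 reads in wildtype and 866 and 956 in Nrf1-CKO retinas and rose by 0.64 (adjusted p = 0.0101 from edgeR). Which cells this rise came from was not tested.

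Genes of bipolar cells, the other fate open to Otx2-positive precursors, were at low counts. The cells that these reads came from were not identified. Of 6 listed, 4 were tested, 3 were called lower and 1 higher. Bhlhe23, Lhx4 and Prdm8 fell by 1.88, 1.35 and 0.65 on the log2 scale, and Lhx4 is also known from early cone precursors. Vsx1 had 14 and 39 reads in wildtype and 96 and 61 in Nrf1-CKO retinas and was called higher at 1.48 (adjusted p = 0.135 from edgeR), a call that was lost without WT replicate 1 (0.85) and without Nrf1-CKO replicate 1 (1.11), while the value was 2.56 without WT replicate 2.

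Several close relatives of the members were called higher. Of 11 relatives, all tested, 0 were called lower and 6 higher. Otx1, the paralog of Otx2, had 1756 and 1312 reads in wildtype and 3229 and 3549 in Nrf1-CKO retinas, a rise of 1.11 on the log2 scale (adjusted p = 0.000211 from edgeR). Otx1 reads were 20.9% and 19.1% of Otx2 reads in wildtype and 43.8% and 45.0% in the mutant libraries. Otx1 is also a gene of the ciliary margin, and 6 of 7 listed genes of that region, Otx1 among them, were called higher. Dmbx1, a further OTX-type homeobox gene, rose from 10 and 5 to 38 and 47 reads, and was not called without Nrf1-CKO replicate 2. Maf, a relative of Nrl that acts in lens fibres, rose by 2.04, beside 10 of 11 lens genes that were called higher.

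The other receptors of the Thrb and Rxrg families were not called in either direction. Thra, the gene of thyroid hormone receptor alpha, had a log2 fold change of -0.29 (95% interval from -0.48 to -0.09, adjusted p = 0.0396 from edgeR). This was close to the -0.31 of Thrb and missed the call only by its size. Both mutant libraries lay below both wildtype libraries. Thra reads stayed at 109% and 114% of Thrb reads in wildtype and 114% and 113% in Nrf1-CKO retinas. Rxra and Rxrb had log2 fold changes of 0.09 and 0.19 (adjusted p = 0.521 and 0.104 from edgeR) and were not called. Rxra changed sign at -0.0059 without Nrf1-CKO replicate 2. Rxra reads were 1053% and 844% of Rxrg reads in wildtype and 1749% and 3093% in the mutant libraries.

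Among 10 genes of thyroid hormone handling and its receptor co-factors, 9 were tested, 1 was called lower and 0 higher, with a median of -0.01. The called gene was Dio3, the deiodinase that inactivates thyroid hormone, with 3779 and 4042 reads in wildtype and 1257 and 1198 in Nrf1-CKO retinas. Dio3 fell by 1.72 on the log2 scale (SE 0.12, adjusted p = 9.9e-05 from edgeR), a larger decrease than that of any member.

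Retinoid genes were more often called higher, 8 of 16 against 2 called lower. Aldh1a1, which makes retinoic acid, and Stra6, the receptor for retinol-binding protein, rose by 1.06 and 0.99 on the log2 scale, while Crabp1, which binds retinoic acid in the cell, had 26837 and 23998 reads in wildtype and 8889 and 6511 in Nrf1-CKO retinas and fell by 1.76 (adjusted p = 9.9e-05 from edgeR). Stra6 is also a gene of the pigment epithelium, whose markers are given below with those of other cells.

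**Figure D4:**
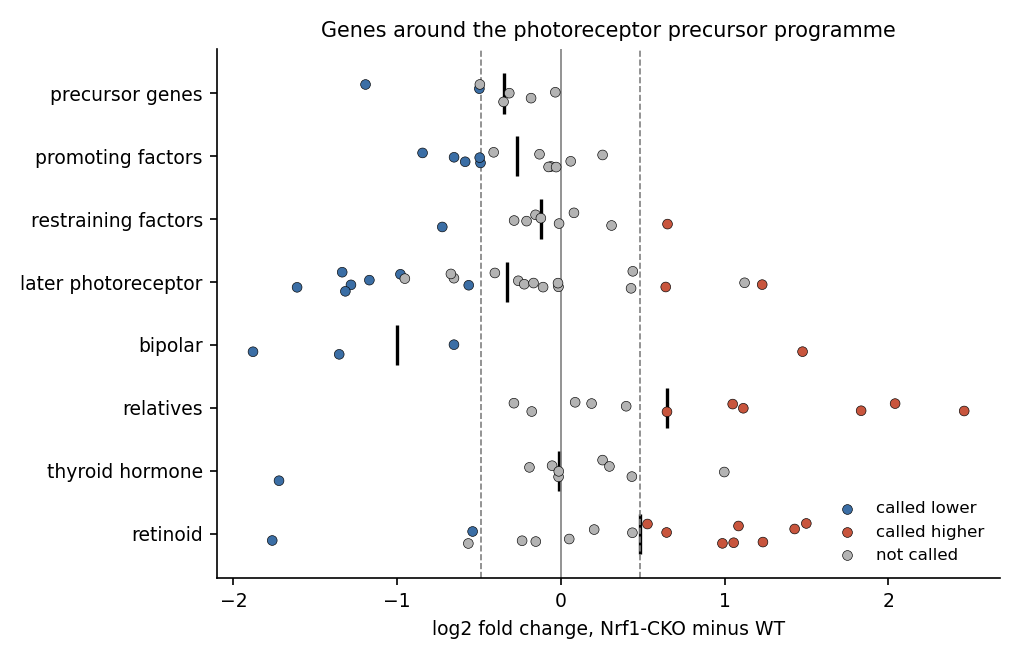
Log2 fold change (Nrf1-CKO minus WT) of the tested genes of each list, with 1 point per gene. Blue was called lower, red higher and grey neither, black bars are list medians, and dashed lines mark 1.4-fold. The medians of the precursor genes (-0.35) and promoting factors (-0.27) lie to the left of 0 and that of the relatives (0.65) to the right, with 2 of 12 promoting factors above 0 and 2 of 11 relatives below it.

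Depth was 74577660 to 85933945 reads on genes per library. Nrf1 itself, counted over the whole gene, had a log2 fold change of -0.03 (adjusted p = 0.794 from edgeR) and cannot check the genotypes, since the allele loses a single exon. Markers of cells other than neural retina were present in all libraries and mostly higher in the mutant. The summed level of 11 lens genes was 158 and 431 CPM in wildtype and 9215 and 3720 CPM in Nrf1-CKO libraries, and that of 12 macrophage genes 95.9 and 88.0 against 272 and 328 CPM. Genes called higher numbered 11 of 12 for macrophages, 8 of 10 for endothelium (1 lower), 7 of 12 for periocular mesenchyme, 7 of 8 for surface epithelium and 3 of 6 tested of 9 erythroid genes. Without WT replicate 2 or without Nrf1-CKO replicate 1, the surface epithelium count was 3 and the mesenchyme count 4 or 5, and without WT replicate 1 the erythroid count was 1. Without the genes of other tissues in the scaling, no member changed its call.

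Cell types that share genes with the precursors moved as well. The pigment epithelium also expresses Otx2, and 9 of 12 tested pigment epithelium genes of 14 listed were called higher, 0 lower. Their summed level was 363 and 271 CPM in wildtype and 672 and 704 CPM in Nrf1-CKO libraries, with Pmel and Trpm1 up by 1.17 and 1.13 on the log2 scale and Rpe65 at 0 or 4 reads in each library. The part of these cells in the nearly equal Otx2 level, and in each ratio to Otx2, was not tested. Ganglion cells also express Rxrg, and 14 of 15 ganglion cell genes, some of them picked by the study from these libraries, were called lower, with a median of -1.68 and a summed level of 3588 and 4077 CPM in wildtype against 1531 and 1223 CPM. Their part in the fall of Rxrg was not tested. By comparison, 2 of 13 progenitor genes were called lower and 0 higher (median -0.10), and 2 of 6 amacrine and horizontal cell genes were called lower and 2 higher (median -0.05). Without Nrf1-CKO replicate 1 the higher count was 0, and without any other single library the lower count was 1.

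**Figure D5:**
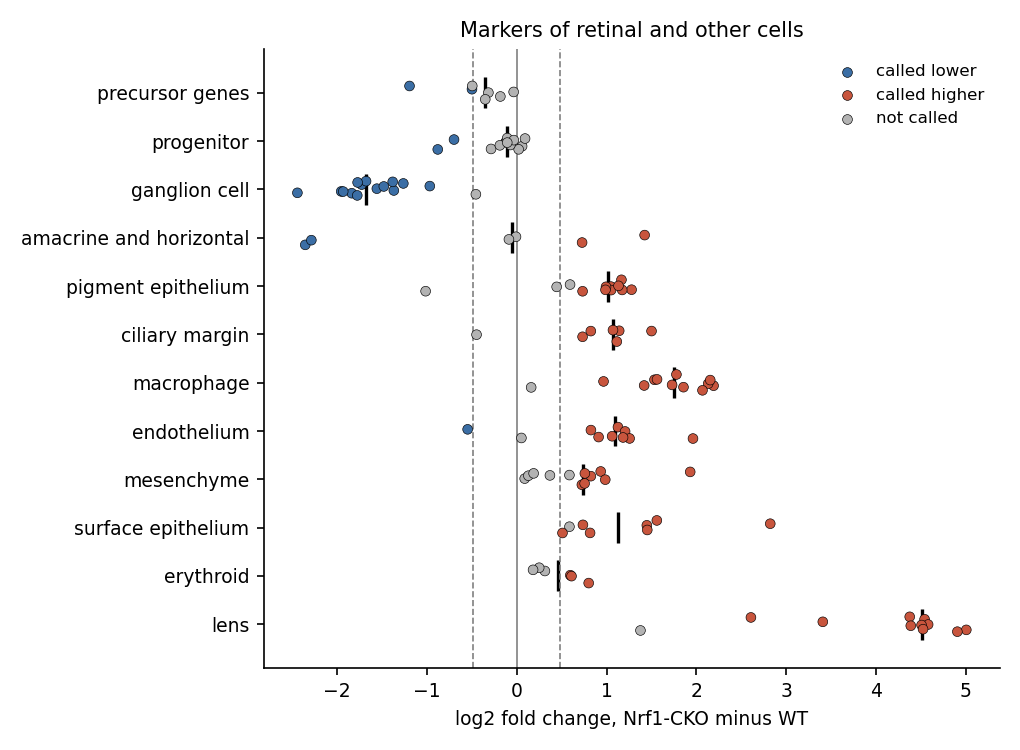
Log2 fold change (Nrf1-CKO minus WT) of the tested marker genes of each cell type or tissue, with 1 point per gene and black bars for list medians. Blue was called lower, red higher and grey neither, and dashed lines mark 1.4-fold. The median of the ganglion cell genes (-1.68) lies to the left of that of the precursor genes (-0.35), and that of the lens genes (4.51) farthest to the right of the lists shown.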

How the data were processed

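RNA from pooled E13.5 retinas was sequenced as paired-end reads in 2 WT and 2 Nrf1-CKO libraries. The authors aligned the reads to mm10 (TopHat2 2.7.2 in the submitters' processing notes) and used HTSeq to obtain a count for each gene, deposited as raw counts. A second table that the authors deposited holds normalized values on a log2 scale. The submitters' notes list DESeq and limma without a role, and how the values were normalized is not given in the sources used here. The release of the gene annotation and the use of strand in counting are likewise not given. Summary entries of HTSeq, 74.0% to 75.0% of all entries and mostly alignments that were not unique, stayed out of library sizes and tests.

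Columns were mapped to samples by genotype and replicate number. Counts were filtered with filterByExpr at a minimum count of 10, scaled with TMM factors (0.992 to 1.02) and compared by quasi-likelihood F-test (edgeR 4.0.16, R 4.3.3), with Benjamini-Hochberg adjustment over 15762 genes. The call, at a fold of 1.4 or more and an adjusted p no higher than 0.2, uses the thresholds of the study, whose own tool needs aligned reads. Standard errors and 95% intervals follow from the fold change and its F statistic. P-values measure the spread between libraries, which differed by more than counting noise (chi-square per gene of 47.6 for WT and 59.1 for Nrf1-CKO), and PCR copies are not independent molecules. Levels in RPKM used merged exons of the GENCODE annotation of GRCm38, and motifs were counted on both strands of RefSeq promoters of GRCm38.p6, in which all 7 members had at least 1 window.

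The members and the 18 further lists were chosen with earlier results of these data known, so lists are given by counts and medians. Named genes are the members, the called genes of the lists and those that touch a member's result, and the 5 genes of at least 5 CPM nearest in profile. Neurod1, Olig2, Rax, Rorb, Notch1, Hes1, Gnat2, Thra, Rxra and Rxrb were named from the lists by their role. The results for some genes of the lists are not reported here by name. Alternatives were DESeq2 1.42.0, other scalings, filters, tests and thresholds, the replicate number as a block, each library left out, and limma 3.58.1 on the deposited log2 values.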

Additional observations from a re-analysis of the deposited data

How the results depend on the processing

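Across the alternatives, Crx, Prdm1, Thrb, Rxrg, Nrl and Rbp3 kept a negative log2 fold change in Nrf1-CKO retinas, and Otx2 changed sign with upper quartile factors (0.0062) and without Nrf1-CKO replicate 1. Crx was not called with upper quartile factors (-0.46), with glmTreat against a fold of 1.4 (-0.50, adjusted p = 0.944 from edgeR) and with limma on the deposited values (-0.44), nor was Rxrg with limma (-0.67). Thrb was called at an adjusted p of at most 0.05 with no minimum fold (-0.31). When single libraries were left out, the range was -0.0883 to 0.0186 for Otx2, -0.56 to -0.44 for Crx, -1.55 to -0.91 for Rxrg and -0.61 to -0.13 for Rbp3, which was called without Nrf1-CKO replicate 1. The number of members called lower, 2 as reported, was 1 with upper quartile factors and with glmTreat, 0 with limma (by which none of the 7 passed), and 1 to 3 with a library left out, 1 without WT replicate 1 or Nrf1-CKO replicate 2 and 3 without Nrf1-CKO replicate 1. Over all genes, 1268 lower and 2024 higher calls became 743 and 1188 with glmTreat and 669 and 816 with limma, calls in the other lists went from 38 lower and 80 higher to 23 and 53 with limma, and upper quartile factors, which moved the median of all genes by 0.0396, raised the share of higher calls from 61.5% to 65.2%.

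Among 43 other named and tested genes, 24 lost or gained a call under some alternative and 4 changed sign, among them Nrf1 with upper quartile factors (0.0060). Over all alternatives, promoting factors called lower numbered 1 to 6 and later photoreceptor genes called lower 1 to 8. With a library left out, Olig2 ranged from -0.2309 to 0.1074 (0.0209 without Nrf1-CKO replicate 1), Rax from -0.1108 to 0.2644 (-0.0980 without Nrf1-CKO replicate 2) and Rxra from -0.0059 to 0.1747. With the longest transcript as length, wildtype levels were 36.3 RPKM for Otx2, 20.2 for Crx, 9.28 for Prdm1 and 10.01 for Thrb. The cause of these changes was not tested.

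In fits without a library, the lone library of its genotype is assumed to vary like the other group. The replicate numbers showed no sign of pairing, with a correlation of -0.0025 between same-numbered deviations, a check that cannot exclude pairing. With the replicate number as a block, Crx was at -0.50 (adjusted p = 0.000435 from edgeR) and Rxrg at -1.21 (adjusted p = 0.00173 from edgeR), and no member changed its call. Depth limits Nrl, many of the later photoreceptor genes and the bipolar genes, and 2 libraries per genotype limit every interval.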
